A study of Saccharomyces cerevisiae with 6 samples.

Results

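Xrn1-sensitive unstable transcripts (XUTs) that run antisense to protein-coding genes were followed in a J2 RNA co-immunoprecipitation (RIP-seq) experiment on wild-type Saccharomyces cerevisiae of the S288C background. An XUT was taken as antisense where at least 0.5 of its span lay opposite a single nuclear protein-coding feature on the other strand, which is called its host. This held for 1098 of the 1593 XUTs in the table, on 1013 hosts, out of 15753 features in all. The remaining 495 XUTs did not reach that overlap, and the edge of the rule fell between XUT_14R-21, with 0.502 of its span covered, and XUT_10R-257, with 0.499. J2 is an antibody that recognises RNA in double-stranded form (dsRNA). The 3 J2 eluate libraries hold RNA recovered from the beads, and the 3 J2 unbound libraries hold RNA that stayed in the supernatant after another round with J2 and fresh beads. All 6 libraries are from untreated wild-type cells, and the antibody fraction is the only labelled difference between the groups.

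XUTs are long non-coding RNAs made by RNA polymerase II that accumulate when the cytoplasmic 5′-to-3′ exonuclease Xrn1 is missing. Many lie antisense to a gene, so that the transcript is complementary to the mRNA of its host and the pair could form a duplex. Xrn1 was intact in the cells used here.

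The features of a library summed to between 18645818 and 43141091 recovered reads. Values are normalised counts, which are reads divided by 1 size factor per library, and 3 reads in a library correspond to between 1.47 and 5.31 normalised counts. A feature was called enriched or reduced in the eluate with a limma adjusted p under 0.05 over all 15753 features, and summaries cover features whose mean normalised count over the 6 libraries exceeded 40. Such bulk counts cannot tell more cells with a transcript from more RNA per cell, nor whether both strands were present in the same cell.

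The shape of these pairs varied more in how much of the host was covered than in how much of the XUT was. Of the 1098 antisense XUTs, 613 lay wholly inside the span of their host, which includes annotated untranslated regions. The overlap ran from 147 to 4089 bases with a median of 643.5. The median share of the host that was covered was 0.419 and the lowest was 0.0241. In 611 cases the XUT covered neither end of the host, in 312 it covered the 5′ end, in 134 the 3′ end and in 41 the whole host. A total of 76 hosts carried more than 1 of these XUTs, up to 4. The XUTs had a median span of 687.5 bases (252 to 5195) and a GC content of 39.3% (median), against 37.0% for the other XUTs.

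The stretch of an XUT that faces the start of its host's coding sequence shows the complementarity directly. The following 30 bases are taken from RefSeq's S288C assembly (R64, the sequence of sacCer3) and are written 5′ to 3′ on the strand of the XUT. The capitals mark the complement of the host's ATG start codon. They come from XUTs that cover this stretch among those with the largest and the lowest change in the eluate.
XUT_11R-130, opposite YKL068W-A (chrXI:309206-309235, minus strand, enriched): aaggtaactgacggaatggtttgcctgCAT
XUT_4F-626, opposite GUK1 (chrIV:1366798-1366827, plus strand, enriched): tgggccagaaattacgataggacgggaCAT
XUT_9R-124, opposite APQ12 (chrIX:277723-277752, minus strand, enriched): tagttcgtattgcggttgagtagcgtcCAT
XUT_13R-234, opposite REC114 (chrXIII:536207-536236, minus strand, reduced): ctttattacaactgagcagtactcgtaCAT
XUT_15F-448, opposite MEK1 (chrXV:996482-996511, plus strand, reduced): tgcaaggttgcagctatacaacggtctCAT
The GUK1 mRNA, read over the same bases, starts with ATGtcccgtcctatcgtaatttctggccca, in which the capitals are the start codon. The 5 examples all span the start codon of the host. Among the same XUTs with the largest and lowest change, those opposite NCE102, COX4 and ADH7 span it too and are not shown. The examples do not show how often enriched or reduced XUTs do so.

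Antisense XUTs were mostly enriched by J2. Of the 1098, 697 passed the mean of 40, and 526 of them were enriched and 60 reduced, which are 75.5% and 8.61% of those that passed. Over all 10188 features above that mean, 34.6% were enriched and 48.0% reduced. Their median change was 1.86 on the log2 scale, with 1.74, 1.85 and 2.08 in the 3 same-numbered library pairs, and the median of all features was -0.46. The 3 eluates lay above all 3 unbound libraries for 537 antisense XUTs and below them for 58, where 35.4% and 49.2% of all features did so. Because 261 of the 697 passed the mean of 40 only through their eluate level, the counts were also made over all 1098. Without the minimum, 750 were enriched and 84 reduced, against 38.7% and 34.4% of all 15753 features. With the minimum set on the unbound mean alone, 270 of 449 were enriched and 70 reduced, with a median of 1.17, against 21.2% enriched and 58.4% reduced over all 8641 features that met it.

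The calls of the other XUTs were split between both directions. Of the 242 that passed the mean of 40, 83 were enriched and 82 reduced, and their median was 0.05. These are 34.3% and 33.9%, against 34.6% and 48.0% of all features above that mean, so the enriched share was near that of all features. Over all 495 without the minimum, 119 were enriched and 156 reduced, and the median turned to -0.18. These are 24.0% and 31.5%, against 38.7% and 34.4% of all features without the minimum. Relative to the median of all features above the mean of 40, the antisense XUTs stood 2.32 higher and the other XUTs 0.51 higher on the log2 scale.

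**Figure D1:**
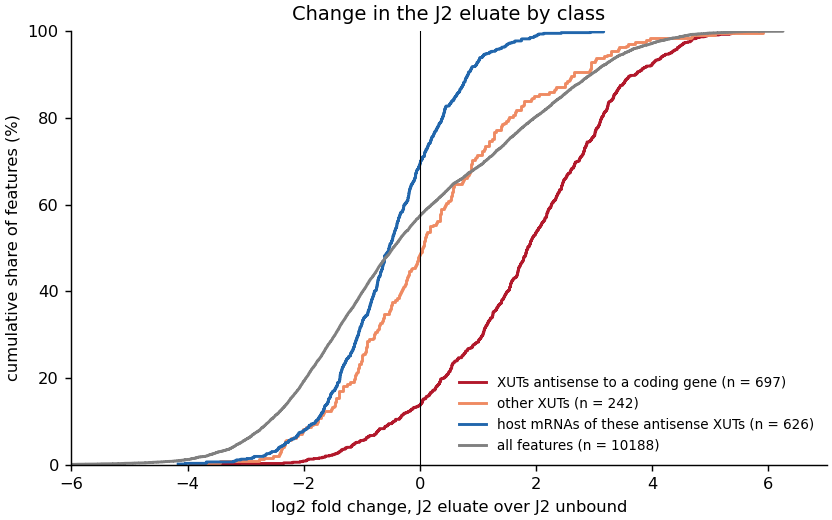
Cumulative share of features (y axis, %) by log2 fold change of J2 eluate over J2 unbound (x axis) for 697 antisense XUTs, 242 other XUTs, the 626 host mRNAs of those antisense XUTs that passed the mean of 40, and all 10188 features. The curve of the antisense XUTs lies to the right, with its median at 1.86, and that of the other XUTs crosses the middle near 0.05.

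The 8 antisense XUTs with the largest enrichment were chosen by their fold change, and each passed the mean of 40 only through its eluate level, so that low unbound values were part of the choice. They lay opposite mRNAs whose unbound means ran from 817 (APQ12) to 13262 (CTR1) normalised counts. XUT_11R-130, opposite the short open reading frame YKL068W-A, had 20.9, 7.09 and 12.9 normalised counts in the unbound libraries and 556, 535 and 862 in the eluates, a log2 fold change of 5.56 (limma adjusted p = 1e-06, SE 0.37). XUT_4F-626 lies opposite GUK1, the guanylate kinase, and had 2.98, 0 and 6.44 normalised counts unbound and 125, 108 and 166 in the eluates. Only XUTs whose eluates did not overlap the unbound libraries were eligible, so this separation was part of the choice too. The 7 reads of XUT_4F-626 in the unbound libraries set against 629 in the eluates correspond to a ratio of 37.2 (95% exact interval 17.9 to 92.9, which covers counting error only). XUT_4F-652, opposite the riboflavin synthesis gene RIB3, was as sparse, with 5 unbound reads against 489, a ratio of 40.5 (17.2 to 125).

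XUT_9R-124 is antisense to APQ12, which encodes a nuclear envelope protein, and rose from 4.66 ± 2.98 to 206 ± 41.8 normalised counts (SD, n = 3 each). XUT_4F-127, opposite the nucleotide hydrolase gene HNT1, rose from 23.5 ± 2.88 to 882 ± 211. XUT_16R-354, opposite the high-affinity copper transporter gene CTR1, rose from 16.4 ± 14.0 to 421 ± 43.9. In these 6 pairs the mRNA of the host went the other way and was reduced in the eluate with the deposited factors, but only GUK1 and RIB3 were also reduced with total counts and with factors from nuclear mRNAs. With the latter, YKL068W-A, APQ12 and CTR1 turned to 0.69, 0.45 and 0.34 on the log2 scale. YKL068W-A also lost its call without eluate 2 or unbound 1 (limma adjusted p = 0.0543 and 0.0723). HNT1 fell from 4327 ± 380 to 1631 ± 455 (log2 fold change -1.44, limma adjusted p = 0.000189, SE 0.22), a call that ended with total counts (-0.53, limma adjusted p = 0.0521) and with factors from nuclear mRNAs (-0.12, limma adjusted p = 0.559). XUT_16R-376, opposite the eisosome gene NCE102, and XUT_7F-64, opposite the cytochrome c oxidase subunit gene COX4, had log2 fold changes of 4.94 and 4.89. Their hosts were not reduced. NCE102 had a log2 fold change of 0.86 (limma adjusted p = 0.0314), which no longer passed after leaving out eluate 1 or 3 or unbound 1 or 2 (limma adjusted p up to 0.129), and COX4 had 0.26 (limma adjusted p = 0.58), with 706, 725 and 2439.5 normalised counts in the unbound libraries and 0.85 (limma adjusted p = 0.0025) without unbound 3. COX4 was called enriched with total counts and with factors from nuclear mRNAs (1.18 and 1.58).

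The 5 antisense XUTs with the largest reduction lay opposite hosts whose unbound means ran from 4.12 (MEK1) to 39.4 (ADH7) normalised counts. XUT_13R-234 lies opposite REC114, a gene for the formation of meiotic double-strand breaks. It had 325, 252 and 240 normalised counts in the unbound libraries and 16.2, 13.3 and 21.3 in the eluates (log2 fold change -3.94, limma adjusted p = 1.31e-06, SE 0.28). Its host had between 2.58 and 8.93 normalised counts in all 6 libraries. XUT_2R-246, opposite the spore wall transporter gene DTR1, fell from 98.2 ± 9.24 to 10.9 ± 3.76 normalised counts, and the 6 values of DTR1 itself lay between 8.86 and 18.8.

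XUT_2R-256, opposite the meiotic checkpoint gene PCH2, had 286, 198 and 195 normalised counts unbound and 42.3, 42.4 and 44.3 in the eluates. XUT_15F-448, opposite the meiotic kinase gene MEK1, had 107, 86.8 and 157 against 32.4, 21.2 and 29.8. XUT_3R-144 is antisense to the alcohol dehydrogenase gene ADH7 and fell from 142 ± 10.3 to 30.4 ± 2.40. The groups did not overlap in any of these 5. All of the hosts other than ADH7 belong to meiosis or spore formation, which vegetative cells do not carry out.

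**Figure D2:**
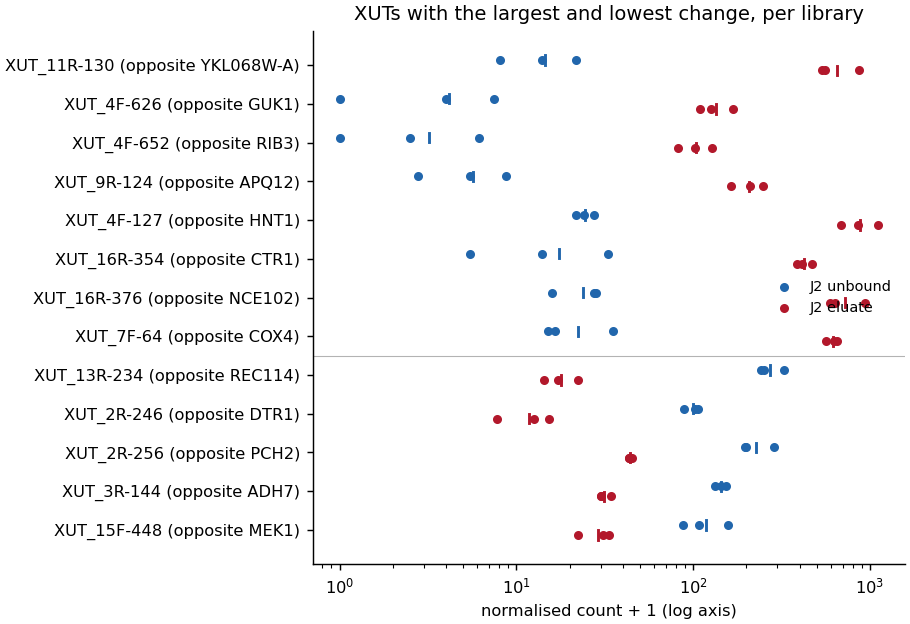
Normalised count + 1 (x axis, log axis) in each library for the 8 antisense XUTs with the largest log2 fold change and the 5 with the lowest, with the host in brackets. Points are libraries and short bars are the means of 3. The eluates lie above the unbound libraries in the upper 8 and below them in the lower 5, as the choice of these XUTs required.

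Enrichment of an antisense XUT moved with the level of its host. The host level was measured in the unbound libraries as normalised counts per kilobase of span, and the 697 XUTs were split into quintiles by it. Where the host was lowest (0 to 164 normalised counts per kilobase), 25 of 140 XUTs were enriched and 55 reduced. These are 17.9% and 39.3%, against 34.6% and 48.0% of all features that passed the same minimum. Both calls were thus rarer in this quintile than over all features. The median log2 fold change of the quintile was -0.24. In the next quintile (169 to 415 per kilobase) 102 of 139 were enriched and 3 reduced, and the median was 1.26. The medians went on to 1.84 and 2.52. Where the host was highest (1593 per kilobase and more), 138 of 140 were enriched, none was reduced, and the median was 3.32. The library pairs gave -0.31, -0.20 and -0.32 for the lowest quintile and 2.98, 3.20 and 3.84 for the highest.

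The same order held with other choices of which XUTs to count. Over all 1098 without a minimum, the medians of the quintiles were -0.33, 1.16, 1.72, 2.20 and 3.04, and with the minimum set on the unbound mean alone they were -0.81, 0.27, 1.30, 1.70 and 2.74. The unbound level of the XUTs themselves was highest opposite the lowest hosts and nearly flat otherwise, with medians over all 1098 of 63.7, 40.4, 35.8, 34.8 and 34.4 normalised counts per kilobase from the lowest to the highest hosts. Across the 697 XUTs, Spearman's rho between the log2 fold change and the host level was 0.76, and between 0.71 and 0.78 in the library pairs. These points come from the same 6 libraries, and the rho is a description across transcripts. The direction in the lowest quintile depends on the scaling of the libraries, since its median became 0.67 with total counts and 1.07 with factors from nuclear mRNAs, while the median of all features moved to 0.45 and 0.85. Relative to all features, the lowest quintile stood 0.22 higher and the highest 3.78 higher with the deposited factors.

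**Figure D3:**
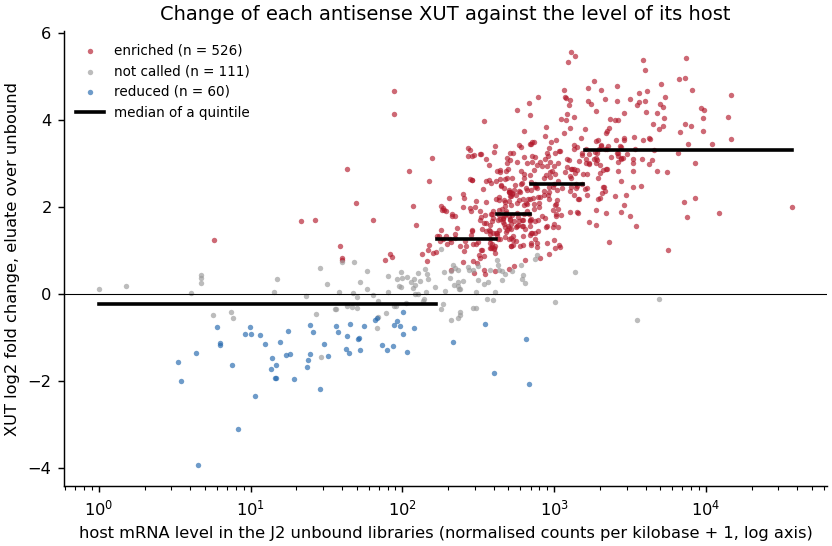
Log2 fold change of each of 697 antisense XUTs (y axis) against the level of its host in the J2 unbound libraries (x axis, normalised counts per kilobase + 1, log axis). Points are coloured by call (526 enriched, 111 not called, 60 reduced) and black bars are the medians of the quintiles, which climb from -0.24 to 3.32.

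Within a library, XUT and host can be set against each other per kilobase with no size factor. For the 653 pairs in which both passed the mean of 40, the median XUT stood at 8.85%, 9.35% and 8.55% of its host in the unbound libraries. In the eluates it stood at 50.8%, 53.9% and 60.6%. As log2 ratios these medians averaged -3.49 ± 0.06 unbound and -0.86 ± 0.13 in the eluates (SD, n = 3 libraries each). The groups did not overlap, and the smallest p that an exact permutation test of 3 against 3 libraries allows is 0.10 (two-sided). The spread across pairs also narrowed. XUT and host lay within 4-fold of each other in 24.6% ± 1.90 of the pairs unbound and in 84.7% ± 4.49 in the eluates. As the minimum of 40 keeps XUTs that are high in the eluate, the pairs were also taken in other ways. With no minimum on the XUT, the median XUT of 1024 pairs stood at 6.54% to 7.24% of its host unbound and at 39.8% to 47.3% in the eluates. With the minimum set on the unbound mean of the XUT, the ranges over 399 pairs were 17.3% to 20.3% and 60.4% to 70.6%.

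The ratios moved toward an even level from both sides. Pairs were sorted by their ratio in unbound 1 alone and then read in the other 5 libraries. The 88 pairs with a log2 ratio of -6 or less in unbound 1 had medians of -6.88 and -6.93 in unbound 2 and 3, and of -2.12, -1.79 and -1.47 in the eluates. The 64 pairs in which the XUT exceeded its host in unbound 1 had medians of 1.14 and 1.23 in unbound 2 and 3 and of 0.31, 0.35 and 0.47 in the eluates. In library pairs 2 and 3, the median log2 fold change of the XUTs went from 3.82 in the pairs of lowest ratio to 0.01 in those where the XUT exceeded its host, and that of the hosts from -1.58 to 0.46. With no minimum on the XUT these medians went from 3.17 to -0.07 and from -1.59 to 0.46, over 161 and 71 pairs. So the rarer strand of a pair was on the whole the one with the higher fold change.

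Counts opposite the 5% most abundant mRNAs give a level of opposite-strand reads to set beside these ratios. They cover the 184 of these mRNAs with an annotated feature other than an mRNA wholly inside them on the other strand. For each mRNA the highest such feature per kilobase was taken in each library. These features can include the antisense XUTs themselves, so the level is not independent of the pairs. Per kilobase the opposite-strand counts came to between 0.121% and 0.283% of the sense counts in the unbound libraries. In the eluates they came to between 0.825% and 1.47%, and they may include true antisense RNA. With no minimum on the XUT, between 6 and 22 of 1024 pairs were at or below that share in an unbound library, and 3 or 4 in an eluate. Among the 653 pairs the counts were 3 to 8 unbound and 0 in the eluates, where the minimum of 40 had removed XUTs that were low in the eluate.

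**Figure D4:**
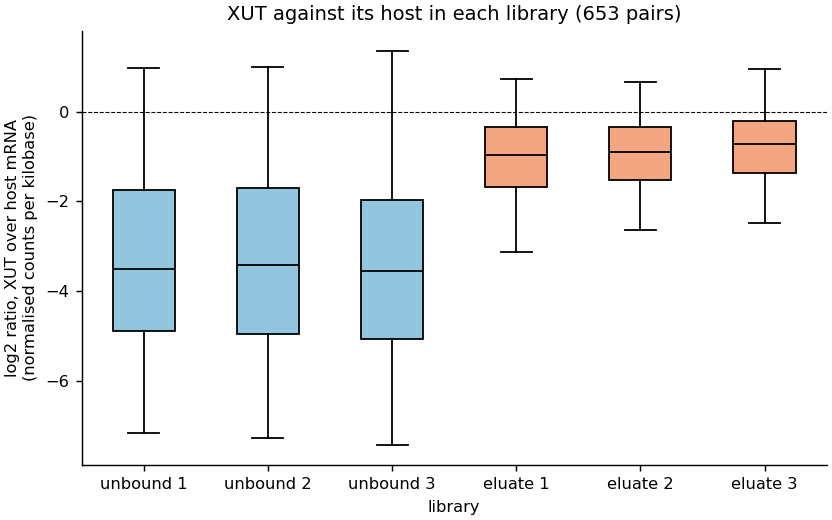
Log2 ratio of XUT over host mRNA, both as normalised counts per kilobase (y axis), in each of the 6 libraries (x axis) for 653 pairs. Boxes span the quartiles with the median as a line, and whiskers run from the 5th to the 95th percentile. The medians lie between -3.55 and -3.42 in the unbound libraries and between -0.98 and -0.72 in the eluates.

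Hosts as a class were more often reduced than enriched, but less so than other mRNAs. Of 947 hosts above the mean of 40, 111 were enriched (11.7%) and 560 reduced (59.1%), and their median was -0.74 on the log2 scale. Over all features above that mean these shares were 34.6% and 48.0%, and the host median relative to theirs was only -0.27. Of 4756 nuclear mRNAs without such an XUT, 330 were enriched (6.94%) and 3699 reduced (77.8%), and their median was -1.54. The sign of the host median turns with the scaling (0.18 with total counts, 0.58 with factors from nuclear mRNAs). At like level the order of the medians held in every quintile of the mRNAs, set over hosts of any antisense XUT and mRNAs that are no host. The level here is the mean of all 6 libraries per kilobase, not that of the unbound libraries. In the lowest quintile, 260 hosts had a median of -0.64 and 881 other mRNAs one of -1.15, while 13.1% and 13.5% of them were enriched. In the highest, 123 hosts had -1.34 and 1018 others -1.83. Of the 653 pairs, 286 combined an enriched XUT with a reduced host, 157 an enriched XUT with a host that was not called, and in 80 both were enriched. In 5 pairs a reduced XUT lay opposite an enriched host. Enriched XUTs and reduced hosts were each common, so these counts alone do not show that the calls of XUT and host go together. Of the 697 XUTs 75.5% were enriched, and of their 626 hosts above the mean of 40, 51.0% were reduced and 15.5% enriched. The pair counts hold for the deposited factors. With factors from nuclear mRNAs, 498 hosts were enriched and 143 reduced.

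The medians differed less by the share of the host that was covered than by the host's level. Where under 0.5 of the host was covered, 251 of 299 XUTs were enriched and 9 reduced, with a median log2 fold change of 2.04. With 0.5 to under 0.95 covered, 239 of 343 were enriched and 39 reduced (median 1.71), and with 0.95 or more, 36 of 55 were enriched and 12 reduced (median 1.40). The enriched shares were 84%, 70% and 65% and the reduced shares 3.01%, 11.4% and 21.8%, against 34.6% and 48.0% of all features above that mean. The SD of the medians over library pairs was between 0.16 and 0.22, and the share of XUTs that passed the mean of 40 differed between these classes (299 of 640, 343 of 401 and 55 of 57). Over all 1098 the medians were 1.68, 1.49 and 1.25. The falling order was lost with an overlap of 0.8 (2.1, 1.79 and 2.18). It was also lost with the minimum on the unbound mean (1.34, 1.09 and 1.20). By position, the medians were 1.98 for XUTs inside the host, 1.79 at its 5′ end, 1.81 at its 3′ end and 1.32 over the whole host. Their library pairs overlap between neighbours in that order except for the XUTs that span the whole host.

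XUTs over 1000 bases had lower median changes than shorter ones, and they lay opposite lower hosts. Over all 1098 without a minimum, the median log2 fold change was 1.75 for 344 XUTs of up to 500 bases, 1.76 for those of up to 1000, 1.27 for those of up to 2000 and 0.51 for 80 longer ones. The median host level was 613, 526, 395 and 152 normalised counts per kilobase in the same order. Spearman's rho between span and log2 fold change was -0.17 over the 1098. It was -0.38 over the 697 above the mean of 40, but only 102 of the 344 shortest XUTs passed that mean, which a short transcript reaches only at a higher level per kilobase.

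XUTs opposite meiosis and sporulation genes had a median change below 0 with the deposited factors, unlike the antisense XUTs as a whole. Of 92 listed genes, 30 were hosts, and 21 of the 30 XUTs opposite them passed the mean of 40. Of these 21, 3 were enriched and 11 reduced, with a median log2 fold change of -0.61. All antisense XUTs above that mean were enriched in 75.5% and reduced in 8.61% of cases. The reduced share here, 52.4%, was close to the 48.0% of all features above the mean, whose median was -0.46. Their hosts had a median level of 30.9 normalised counts per kilobase. Without the minimum, 4 of 30 were enriched and 15 reduced. The counts rest on the scaling, with 6 enriched and 5 reduced under total counts and 11 and 5 under factors from nuclear mRNAs.

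The reduced ones include the XUTs opposite REC114, DTR1, PCH2 and MEK1 described above and that opposite NDT80, the transcription factor that drives the middle meiotic genes. XUT_8R-174, opposite NDT80, had 339, 365 and 351 normalised counts unbound and 80.1, 92.7 and 97.1 in the eluates (log2 fold change -1.96, limma adjusted p = 1.08e-05). NDT80 itself had 25.3, 35.4 and 56.7 unbound and 50.1, 61.8 and 86.0 in the eluates, which overlap (log2 fold change 0.78, limma adjusted p = 0.0745, and 0.0257 with the replicate number as a block), and it was called enriched with total counts (1.68) and with factors from nuclear mRNAs (2.07). XUT_12R-297 covers the whole of SPO77, a gene for spore wall formation, and fell from 251 ± 20.8 to 139 ± 22.3 (log2 fold change -0.86, limma adjusted p = 0.00375), a sign that turned with total counts (0.06) and with factors from nuclear mRNAs (0.46). SPO77 had a log2 fold change of 0.73 (limma adjusted p = 0.0427), and 0.0514 with the replicate block. Its call was also lost without any 1 eluate or without unbound 2 or 3 (limma adjusted p up to 0.136).

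The 3 enriched ones lay opposite SPO12, ADY4 and GAS2. XUT_8R-199 is antisense to SPO12, a regulator of mitotic exit that is also used in mitosis, whose level was 916 normalised counts per kilobase unbound, and its log2 fold change was 3.17. XUT_12F-231, opposite ADY4 of the meiotic spindle pole body, whose level was 212 per kilobase, had 1.83. XUT_12R-299 spans all of GAS2, a spore wall glucanosyltransferase gene, and was the most abundant antisense XUT per kilobase in the eluates. It had 5609, 4836 and 3890 normalised counts unbound and 42002, 33419 and 26027 in the eluates (log2 fold change 2.81, limma adjusted p = 3.61e-06, SE 0.23). Its host had 155, 170 and 323 unbound and 442, 584 and 1255 in the eluates (log2 fold change 1.74, limma adjusted p = 0.00266), so both strands rose and the XUT exceeded its host in all 6 libraries.

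**Figure D5:**
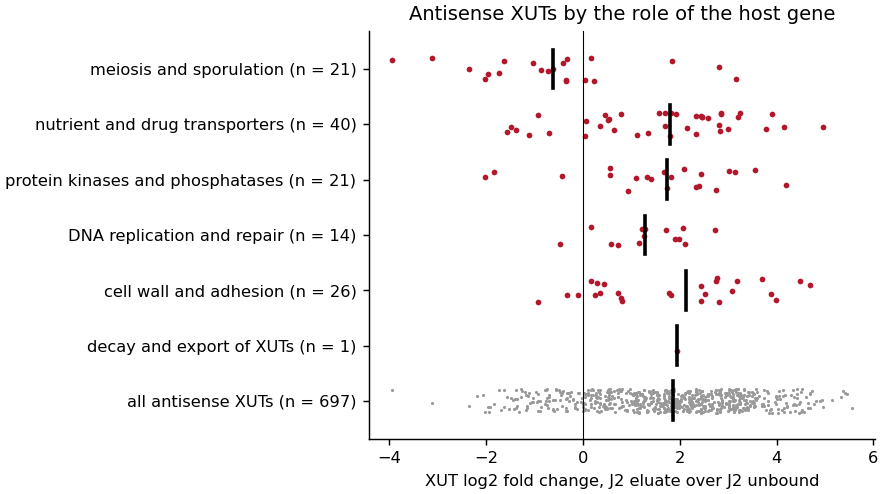
Log2 fold change of J2 eluate over J2 unbound (x axis) of antisense XUTs above the mean of 40, by the gene list that holds the host (y axis, with n). Points are XUTs and black bars medians. The bar for meiosis and sporulation is at -0.61, and that for all 697 antisense XUTs at 1.86.

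Opposite 4 of the other 5 lists, between 65.4% and 81.0% of the XUTs above the mean of 40 were enriched, near the 75.5% of all antisense XUTs and above the 34.6% of all features. The fifth list, of RNA decay and export, had 1 XUT above that mean. Opposite transporters, 27 of 40 above the mean of 40 were enriched and 6 reduced (median log2 fold change 1.80). The reduced ones include XUT_14F-293, which covers the whole of BIO5, the biotin precursor permease gene, and fell from 314 ± 31.9 to 122 ± 27.5 normalised counts opposite a host of 45.2 ± 8.21 unbound. Its log2 fold change of -1.38 became -0.47 with total counts (limma adjusted p = 0.0833) and -0.07 with factors from nuclear mRNAs (limma adjusted p = 0.797), so this call too rests on the scaling. XUT_5R-129, over all of FCY21, a putative purine-cytosine permease gene, rose from 1447 ± 350 to 5060 ± 2756 opposite a host at 1104 ± 460 unbound. Opposite protein kinases and phosphatases, 17 of 21 were enriched and 3 reduced (median 1.73). XUT_4F-43, opposite the pheromone pathway kinase gene PRR2, rose from 90.0 ± 7.18 to 386 ± 50.1 while PRR2 fell from 116 ± 1.07 to 43.8 ± 3.42 with the deposited factors. The log2 fold change of PRR2 was -1.39 with those factors, -0.49 with total counts (limma adjusted p = 0.106) and -0.09 with factors from nuclear mRNAs (limma adjusted p = 0.74), so that its call rests on the scaling.

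Opposite DNA replication and repair genes, 11 of 14 XUTs were enriched and none reduced (median 1.28). Their examples are XUT_4R-265, opposite the recombination gene RAD55, with a log2 fold change of 1.26 (limma adjusted p = 0.00114), and XUT_2F-43, opposite POL12 of DNA polymerase alpha, with 1.90 (limma adjusted p = 8.63e-05). Opposite cell wall and adhesion genes, 17 of 26 were enriched and 1 reduced (median 2.13). XUT_12F-208 covers 94.1% of NCW2, a cell wall mannoprotein gene, and had 106, 99.2 and 116 normalised counts unbound and close to 1718 in each of the 3 eluates. NCW2 was enriched too, from 1415 ± 172 to 2421 ± 149 (log2 fold change 0.78, limma adjusted p = 0.00163). Among genes of RNA decay and export, only RAT1, the nuclear 5′-to-3′ exonuclease, and PAN3, of a poly(A) nuclease, had an antisense XUT. XUT_15F-197, at the 3′ end of RAT1, rose from 40.7 ± 0.52 to 161 ± 33.1. XUT_11F-176, at the 3′ end of PAN3, had a mean under 40 and a log2 fold change of 1.09 (limma adjusted p = 0.0252) that was lost on leaving out eluate 1 or 3 or unbound 1 (limma adjusted p up to 0.0995).

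After the XUT over GAS2, the highest levels per kilobase in the eluates belonged to XUTs opposite HAP1, VTC1 and ADH2. XUT_12R-235, inside HAP1, the haem-responsive transcription factor gene, had 1041, 1057 and 1059 normalised counts unbound and 7617, 8853 and 12473 in the eluates. HAP1 itself was enriched by a log2 fold change of 0.83 (limma adjusted p = 0.00369, SE 0.20). XUT_5R-144, opposite the vacuolar transporter chaperone gene VTC1, had 107, 151 and 101 unbound and 3215, 2768 and 2984 in the eluates, and VTC1 was enriched by 0.88 (limma adjusted p = 0.000869). XUT_13F-376 covers 19.1% of ADH2, the glucose-repressed alcohol dehydrogenase gene, and rose from 77.6 ± 30.4 to 1878 ± 243. ADH2 did not pass the test (log2 fold change -0.61, limma adjusted p = 0.384), and here the XUT exceeded its host in all 6 libraries, by a log2 ratio of 0.92 to 1.81 unbound and 5.85 to 8.08 in the eluates. The pair therefore moved away from an even ratio.

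Of the 4 hosts with a mean above 40 that rose most, 2 lay opposite XUTs that did not pass the test with the deposited factors. XUT_9F-4 covers 84.4% of CSS1, a gene near the chromosome end, and had 11809, 11723 and 13471 normalised counts unbound and 10139, 14200 and 10107 in the eluates, which overlap (log2 fold change -0.12, limma adjusted p = 0.606). CSS1 had 692, 643 and 49.0 unbound and 3516, 5532 and 821 in the eluates (log2 fold change 3.16, limma adjusted p = 0.0142, SE 0.97), and the call was lost without eluate 1 or eluate 2 (limma adjusted p = 0.0539 and 0.0661). XUT_11R-124 spans OSI1 and had 1948, 1927 and 2371 unbound and 2042, 2156 and 1455 in the eluates. OSI1 rose from 135 ± 63.7 to 674 ± 123 (log2 fold change 2.43, limma adjusted p = 0.00019), and its XUT exceeded it in all 6 libraries. XUT_9R-84, opposite YIL082W, had 234 ± 24.8 unbound and 230 ± 57.8 in the eluates while its host rose from 27.2 ± 2.49 to 94.1 ± 13.8. With total counts XUT_9F-4, XUT_11R-124 and XUT_9R-84 were called enriched, by 0.80, 0.76 and 0.87 on the log2 scale (limma adjusted p = 0.00623, 0.00473 and 0.0206), and with factors from nuclear mRNAs by 1.20, 1.16 and 1.27. Only 45.4% of the 50-base windows of that XUT occur once in the genome, so its reads are uncertain.

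The cell wall gene HPF1 and the reading frame YPR170C were the other hosts with a large rise, of 2.93 and 2.60. XUT_15F-14, over 6.54% of HPF1, had a log2 fold change of 1.82, with 54.2% of its windows unique. XUT_16F-356, opposite YPR170C, had a mean under 40 and a change of 1.69 (limma adjusted p = 0.0297), which was lost on leaving out any 1 eluate (limma adjusted p up to 0.0932).

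Some features of the sequence and annotation bear on how single values are read. Of the 1098 antisense XUTs, 1096 share bases with some other annotated feature of their own strand. That feature is a coding one for 129 and a stable unannotated or cryptic unstable transcript for 515. In 22 of the 1098, fewer than 80% of the 50-base windows are unique. No XUT shares bases with another XUT of its strand. The longest open reading frame starting with ATG had a median of 47 codons in the antisense XUTs and 41 in the other XUTs. The letters TCTT were searched on the transcript's own strand in its first 200 bases. They occurred in 76.5% of antisense XUTs, 65.3% of other XUTs and 86.5% of cryptic unstable transcripts of at least 200 bases. The letters GTAA or GTAG, searched in the same bases, occurred in 81.8%, 82.2% and 85.5%. Of 26 hosts with more than 1 antisense XUT above the mean of 40, 24 had all of them with the same call.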

How the data were processed

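RNA of wild-type S. cerevisiae was sequenced by the authors as 3 J2 unbound and 3 J2 eluate libraries. Single reads of 50 bases were aligned with STAR to sacCer3 and counted with featureCounts (Subread 1.5.0-p1) over coding genes, CUTs, SUTs and XUTs. The strand setting of the counting is not given in the sources used here. The paper names an Illumina TruSeq kit for the libraries and does not state whether that protocol kept the strands apart. Counting by strand was therefore an assumption, based only on the low opposite-strand counts reported above. Every value that sets an XUT against its host depends on it. The values deposited by the authors are a normalised signal, reads divided by 1 DESeq2 (1.24.0) size factor per library, and whole reads were recovered for 100% of them. The authors' fold changes, p-values and means were not used.

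limma 3.58.1 (R 4.3.3; lmFit and eBayes with a trend) was run on log2(normalised count + 1), and Benjamini-Hochberg adjustment covered all 15753 features. Fold changes on that scale understate those of low features. The fit was also run on simulated counts in which few features changed and the size factors were given. That run cannot speak to the scaling of the libraries. DESeq2 1.42.0 and edgeR 4.0.16 were alternatives on the recovered reads. Whether a read was counted in every feature of its strand that it overlaps is not stated. It was taken to be, in which case overlapping features share reads.

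Same-numbered unbound and eluate libraries deviated together (r = 0.228, 0.321 and 0.299), so the replicate number was taken to pair them. The fit has no block, and the block is an alternative. The study describes the 3 samples as biologically independent.

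Named XUTs have the 8 largest and 5 lowest fold changes among called, non-overlapping XUTs with no same-strand coding overlap, 1 per host. The 4 highest in eluate level, in host change and in unbound ratio to the host, and up to 2 per gene list by host share covered, were added. NDT80 was named by its ratio, and SPO12 and ADY4 after their values were seen. Members, lists and tests were chosen with earlier results of these data known.

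Of 5790 coding genes shared with the R64 reference, 99.9% had equal borders.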

Additional observations from a re-analysis of the deposited data

How the results depend on the processing

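Most values kept their direction and their side of the threshold. Among the summaries, 221 comparisons of an alternative with the reported value did not move beyond their limit, 34 moved and 4 turned in sign. For named XUTs and hosts 681 kept both call and sign, 29 lost a call, 8 gained a call and 24 turned in sign. The scaling of the libraries moved most, since it shifts all features together. With factors from nuclear mRNAs, 8 antisense XUTs were reduced, 498 hosts enriched and 143 reduced, and opposite meiosis genes 11 XUTs were enriched and 5 reduced. As log2 fold changes, the medians were then 3.15 for antisense XUTs, 0.58 for hosts, 3.31, 3.02 and 2.69 from the lowest to the highest share of the host covered, and 1.07 and 4.57 for the lowest and highest host level. With total counts, 13 XUTs were reduced, 338 hosts enriched and 240 reduced, and opposite meiosis genes 6 XUTs were enriched and 5 reduced. The medians were 2.75 for XUTs, 0.18 for hosts, 2.92, 2.62 and 2.30 by share covered, and 0.67 and 4.19 by host level. TMM factors gave -0.57 for hosts and -0.076 for the lowest host level. The cause of these shifts beyond the factors themselves was not tested.

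A pseudocount of 10 gave medians of 1.66 for antisense XUTs and 1.79 where under 0.5 of the host was covered, and no minimum on the mean gave 1.62 and 1.68. An overlap of 0.8 left 7 reduced XUTs opposite meiosis genes and a median of 2.18 where 0.95 or more of the host was covered, over fewer XUTs. A minimum on the unbound mean, chosen after seeing the data, gave 270 enriched XUTs, 1 of them opposite meiosis genes, a median of 1.17, and 1.34, 1.09 and 1.20 by share covered. The values above without the minimum, or with it on the unbound mean, for XUT over host, span and hosts at like level were also chosen after seeing the data. In the alternatives to scaling and test, the minimum of 40 stayed on the deposited values.

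Among named results, factors from nuclear mRNAs turned YKL068W-A to 0.69, APQ12 to 0.45, CTR1 to 0.34, ADH2 to 0.69, XUT_9F-4 to 1.20, XUT_11R-124 to 1.16, XUT_9R-84 to 1.27 and XUT_12R-297 to 0.46. Total counts turned YKL068W-A to 0.28, APQ12 to 0.040, ADH2 to 0.29, XUT_9F-4 to 0.80, XUT_11R-124 to 0.76, XUT_9R-84 to 0.87 and XUT_12R-297 to 0.055. TMM factors turned XUT_9F-4 to 0.047, XUT_11R-124 to 0.0079 and XUT_9R-84 to 0.12. Leaving out 1 library at a time gave COX4 between -0.045 and 0.85, ADH2 between -1.18 and 0.054, XUT_11R-124 between -0.27 and 0.018 and XUT_9R-84 between -0.22 and 0.14, all 4 not called with all libraries.

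With the replicate number as a block, 540 antisense XUTs were enriched and 63 reduced, and 129 hosts enriched and 593 reduced. Among named results the block changed the calls of NDT80 and SPO77, given above, and no other. DESeq2 called 525 XUTs enriched and 60 reduced, and edgeR 525 and 57. Without any 1 library, between 507 and 523 XUTs were enriched and between 45 and 57 reduced. Depth limits the XUTs of few unbound reads, whose ratios have wide counting intervals.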
